A study of Mus musculus with 16 samples.

Results

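Bglap3 was examined in the pancreas of 16 mice with caerulein-induced chronic pancreatitis, as the row of the deposited table named Bglap3, 1 gene of 15156. It was selected on its measured level in these 16 libraries, which had been seen to differ between genotype groups, so its levels and differences are given as a description with errors and without a p-value. Every group held 4 animals, called independent biological replicates in the series description: wild type (WT), Daxxfl/flPdx1-CreTg (DC), Men1fl/flPdx1-CreTg (MC) and Daxxfl/flMen1fl/flPdx1-CreTg (DMC). All 4 groups, WT included, were treated at 6 to 10 weeks of age with caerulein, a cholecystokinin analogue that injures acinar cells. It was injected intraperitoneally at 50 ug/kg, 4 times at hourly intervals on each treatment day, 3 days a week for 3 weeks, and tissue was taken 5 days after the last dose. No pancreas without caerulein was analysed here, and no Cre transgene is named for the wild-type animals. Pdx1-Cre acts in the epithelial lineages of the pancreas, so unrecombined stromal, vascular and immune cells also contributed RNA. Strand-specific total RNA libraries were sequenced, and each value is a normalized count, the reads of a gene divided by the size factor of its library. Libraries held 13481063 to 23728309 reads, of which the 10 most abundant genes took 33.5 to 51.8%.

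Osteocalcin, the product of Bglap, is a small secreted protein of bone matrix that osteoblasts make under Runx2. Vitamin K-dependent carboxylation turns some of its glutamates into Gla residues that bind calcium, and its undercarboxylated form has been described as a hormone that acts on beta cells. The mouse has a cluster of related genes, Bglap, Bglap2 and Bglap3, of which Bglap3 was described as the osteocalcin-related gene expressed outside bone. Daxx encodes a chaperone that places histone H3.3 at repeats and heterochromatin, and Men1 encodes menin, a scaffold of MLL histone methyltransferase complexes and a tumour suppressor of endocrine cells.

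Bglap3 (ENSMUSG00000074489.9) lies on the minus strand of GRCm38 at chr3:88368616-88372743, with Bglap2 4993 bases and Bglap 10758 bases beyond its start. Bglap and Bglap2 were not analysed here. Of 5 transcripts annotated by GENCODE, 3 are coding and share a coding start, and 2 are retained-intron transcripts. An upstream start serves 2 of the coding transcripts, and an inner start, which lies in an intron of both, serves the other. Of the bases of Bglap3 transcripts read in windows of 50, 8.0 to 24.4% of windows also occurred in a transcript of Bglap or Bglap2, and 1.0 to 4.0% did in windows of 100. Reads from such stretches match more than 1 gene, and the rule by which they were counted is not given in the sources used here.

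Sequences before the 2 starts are shown because they are near-copies of each other. In RefSeq windows of 250 bases before to 50 bases after a start, on GRCm38.p6, the upstream and inner windows shared a stretch of 200 bases without a gap, of which 184 (92.0%) were identical. The part of that stretch before the inner start is 150 bases long, at chr3:88372842-88372991 for the upstream copy and chr3:88369832-88369981 for the inner copy, both on the minus strand. Capitals mark the 14 bases that differ.
upstream copy: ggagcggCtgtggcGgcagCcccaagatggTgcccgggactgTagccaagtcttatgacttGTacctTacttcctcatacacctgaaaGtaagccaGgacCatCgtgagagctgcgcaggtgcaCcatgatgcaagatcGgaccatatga
inner copy: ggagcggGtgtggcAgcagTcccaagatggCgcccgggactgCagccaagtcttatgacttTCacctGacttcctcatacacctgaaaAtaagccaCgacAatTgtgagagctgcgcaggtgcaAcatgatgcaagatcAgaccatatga
The first difference is C8G, with the base of the upstream copy first and positions counted from 1 at the 5′ end of the stretch. Continued into the first exons, the likeness covered 385 aligned bases with 352 identical (91.4%), and each copy spanned an annotated start. The last 50 bases before the upstream start, at chr3:88372742-88372791 on the minus strand, follow the 200-base stretch, which ended at the edge of the inner window, and belong to the likeness as continued.
before the upstream start: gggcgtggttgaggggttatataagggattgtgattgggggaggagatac

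Motifs of transcription factors linked to osteocalcin, and general promoter elements, were searched in the Bglap3 windows on both strands. CANNTG, the E-box, occurred 4 times in the upstream window, 2 times in the window of a middle start and 7 times in the inner window, and 72.3% of all 32851 RefSeq windows held it. All 4 in the upstream window and all 7 in the inner window lay in the shared stretch. The Runx core AACCACA was in none of the 3 Bglap3 windows and in 5.3% of all windows. TGACGTCA (1.8% of all windows), TGANTCA (7.8%), CACGTG, which is itself a CANNTG (7.2%), and TATAAA (13.6%) were not in the 3 windows either. Motifs were searched only as written here, so variants were not counted. An example is the tatataa in the bases printed above from before the upstream start. The Bglap window held TATAAA and 1 CANNTG.

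The targeted genes were read first as a check of the labels. Men1 came to 331, 345, 459 and 336 normalized counts in WT replicates 1 to 4, while DC libraries ranged over 397 to 541, MC libraries over 116 to 147 and DMC libraries over 157 to 178. The MC and DMC libraries lay below every WT and DC library, and Men1 fell by 1.47 ± 0.13 (SE) on the log2 scale from WT to MC (limma, adjusted p = 6.16e-05). Mean Daxx values were 263 ± 65.0 (WT), 223 ± 15.6 (DC), 246 ± 26.1 (MC) and 182 ± 30.4 (DMC) normalized counts (SD, n = 4). Its log2 difference was -0.20 ± 0.16 for DC minus WT (limma, adjusted p = 0.683) and -0.51 ± 0.16 for DMC minus WT (adjusted p = 0.193), so the whole-gene Daxx value did not separate DC from WT. These are whole-gene values from mixed tissue, in which reads outside the deleted exons and cells without Cre also count. WT replicates 2 and 3 stood apart in lymphoid marker genes, with mean log2 levels of 8.12 and 8.86 against 4.06 to 7.48 in the other 14 libraries. Bglap3 differences from WT without those 2 libraries were 2.94 for DC, 2.70 for MC and 5.44 for DMC. Y-linked genes had mean log2 levels of 9.14 to 9.55 in some libraries and at most 1.88 in the others. The high libraries were WT 1 and 2, DC 1, MC 1 and 2, and DMC 1 and 3, by replicate number. The sexes thus appear mixed, and unevenly between DC and the other groups.

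Bglap3 was low in WT, several-fold higher after loss of either gene and highest after loss of both. In WT replicates 1 to 4 it came to 99.0, 53.3, 62.8 and 37.3 normalized counts, from 34 to 77 reads per library. In DC the 4 libraries held 326, 731, 338 and 620 normalized counts, and in MC they held 619, 214, 359 and 546. In DMC they held 1770, 2010, 4394 and 3289 normalized counts, from 1944 to 3599 reads. Every DC and MC library was above every WT library, every DMC library was above every other library, and DC and MC overlapped throughout most of their range. The highest library of each group exceeded the lowest by 2.65-fold (WT), 2.24-fold (DC), 2.89-fold (MC) and 2.48-fold (DMC).

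The mean was 63.1 ± 26.1 for the WT animals, 504 ± 203 for DC, 435 ± 183 for MC and 2866 ± 1218 for DMC (SD, n = 4). The SD was 40.3 to 42.5% of the mean in each group, so the relative spread between animals was alike at low and high levels. Per kilobase of exon, Bglap3 stood at percentile 28 to 46.7 of 15152 genes in the WT libraries, 80 to 92 for DC, 67.5 to 90 for MC and 97.3 to 98.7 for DMC. In the best-placed DMC library it was the gene of rank 190. In RNA from whole tissue, more cells with the transcript and more transcript per cell cannot be told apart.

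**Figure D1:**
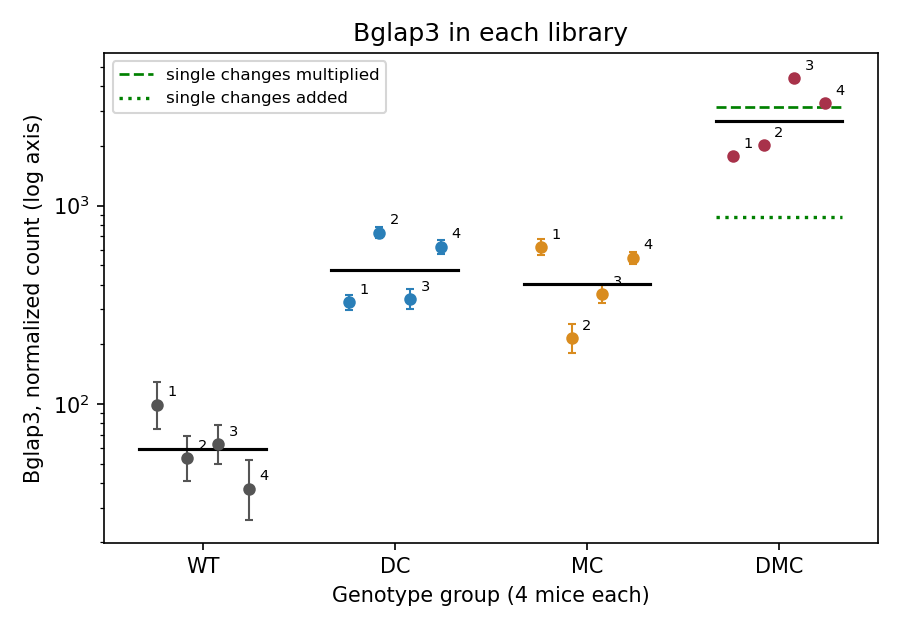
Bglap3 normalized count (log axis) in each of the 16 libraries by genotype group, with replicate numbers beside the points, 95% counting intervals as bars and the geometric mean of each group as a black line. All 4 DMC libraries, at 1770 to 4394, sit above the level at which the changes of the single losses are added (dotted) and around the level at which they are multiplied (dashed). The dotted level is from arithmetic means and the dashed level from geometric means.

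On the log2(normalized count + 1) scale, with an SE of 0.39 from a fit over all libraries, Bglap3 was higher than in WT by 2.97 in DC, which is 7.85-fold with a 95% interval of 4.43 to 13.9. It was higher by 2.74 in MC (6.67-fold, 3.76 to 11.8) and by 5.47 in DMC (44.4-fold, 25.0 to 78.6). These 3 comparisons share the WT libraries, and DMC is shared by the next pair. DMC exceeded MC by 2.73 (6.65-fold, 3.76 to 11.8) and DC by 2.50 (5.65-fold, 3.19 to 10.0). MC minus DC was -0.24 (0.850-fold, 0.479 to 1.51), an interval that holds no change as well as shifts in either direction. Among the 14220 genes tested, the Bglap3 difference was the second most positive for DMC minus WT, and it ranked 11 for DC minus WT, 38 for MC minus WT, 10 for DMC minus MC and 67 for DMC minus DC.

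**Figure D2:**
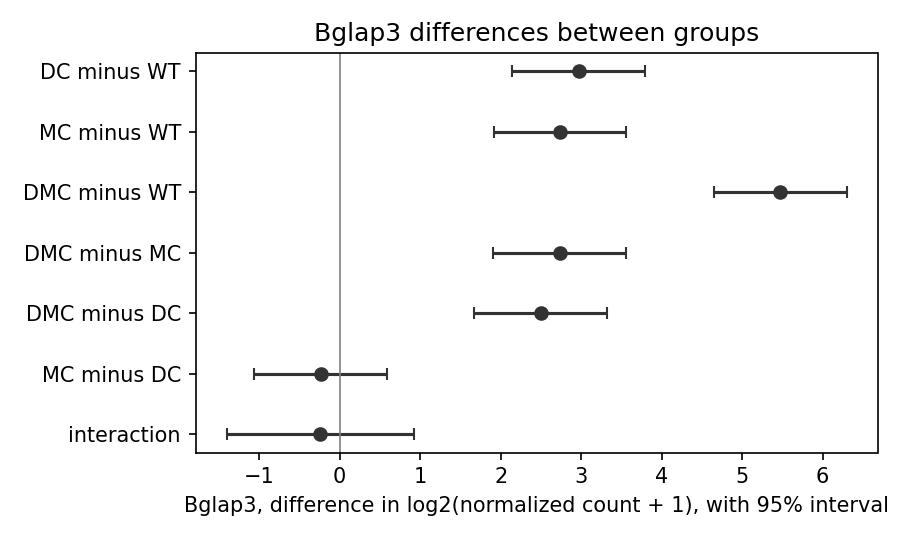
Differences of Bglap3 between groups and the interaction of the 2 losses, in log2(normalized count + 1), as points with 95% intervals from the fit over 16 libraries. The intervals of the first 5 differences lie above 0, while those of MC minus DC and of the interaction contain 0.

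Loss of both genes was set against 2 ways of combining the single losses. DC, MC and DMC carried Pdx1-Cre, and no Cre transgene is named for WT. Any effect of Cre would enter each difference from WT and cannot be told apart from gene loss. Through the single differences it would also enter the added level, the multiplied level and the interaction. The DC mean exceeded the WT mean by 441 normalized counts and the MC mean exceeded it by 371, so adding both gains to WT gave 875. The DMC mean was 3.27-fold that level, and the lowest DMC library was 2.02 times it. Multiplying the fold changes of the means gave 3468, and 1 of 4 DMC libraries was above that level. With geometric means the multiplied level was 3159 against 2678 observed. The interaction, the log2 change after both losses minus the sum of the single changes, was -0.24 ± 0.55 (SE) with a 95% interval of -1.41 to 0.93. As a ratio to the multiplied level this is 0.848, with an interval of 0.378 to 1.90. The added level, from arithmetic means, corresponds to an interaction of -1.85 against the multiplied level from geometric means. That is outside the interval, while multiplication corresponds to 0, inside it. The gene was selected on these levels, and the -1.85 was computed from them without an error of its own. The interval is therefore a description and does not test either way of combining. With libraries weighted by quality the interaction was -1.02 ± 0.47 (SE) with a 95% interval of -2.03 to -0.02. That interval no longer contains 0, so the place of the multiplied level relative to the interval depended on the weighting. The -1.85 comes from unweighted means and cannot be set against the weighted interval. An added level with weights was not computed.

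Within groups Bglap3 varied more than most genes of its level. Its residual SD was 0.62 on the log2 scale, against a median of 0.28 over the genes tested, and 97.9% of the 3417 genes within 2-fold of its mean had a lower one. Between-group differences nevertheless made up 92.9% of its log2 variance over the 16 libraries. Libraries far above their group mean were WT replicate 1 (0.73), DMC replicate 3 (0.71), DC replicate 2 (0.63) and MC replicate 1 (0.62), and the lowest was MC replicate 2 (-0.90).

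The genes around Bglap3 differed far less between the groups than it did. Within 500 kb, 68 genes other than Bglap3 are annotated, and 30 were in the table and all tested. By limma with Benjamini-Hochberg adjustment over all genes, 0 of 30 passed 0.05 in any of the 6 comparisons or the interaction, and edgeR and DESeq2 on recovered reads also called 0. With library quality weights limma called 3 of 30 for DMC minus DC and 2 of 30 for MC minus DC. The same weights called 1655 and 1033 of all 14220 genes tested in those 2 comparisons. At an unadjusted p under 0.05 there were 1 for DC minus WT, 4 for MC minus WT, 2 for DMC minus WT, 0 for DMC minus MC, 1 for DMC minus DC, 2 for MC minus DC and 1 for the interaction. The shares of all genes tested at that level were 11.7, 12.7, 12.5, 5.6, 13.2, 13.7 and 8.1% in the same order, against 3.3, 13.3, 6.7, 0, 3.3, 6.7 and 3.3% of the neighbours. After adjustment over all genes tested, limma called 0.0211% for DC minus WT, 0.781% for MC minus WT, 0.788% for DMC minus WT, 0.00703% for DMC minus MC, 0.534% for DMC minus DC and 1.37% for MC minus DC. For the interaction it called 0%, with 1156 genes at an unadjusted p under 0.05, 0 called by edgeR and 43 by DESeq2. At these background shares a list of 30 genes would seldom hold a called gene.

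The differences of the neighbours give their own measure. For DMC minus WT, where Bglap3 differed by 5.47, they ran from -0.32 (Gpatch4) to 0.66 (Paqr6), with a median of -0.08 against -0.02 over all genes. For DC minus WT they ran from -0.39 (Nes) to 0.39 (Paqr6) and for MC minus WT from -0.38 (Isg20l2) to 0.60 (Iqgap3). The smallest adjusted p was 0.208, for Nes in MC minus DC. Paqr6, a progestin and adipoQ receptor family gene on the opposite strand, ends 75 bases from the end of Bglap3. Its mean was 10.7 ± 5.10 normalized counts for WT, 14.6 ± 8.33 for DC, 9.65 ± 5.01 for MC and 17.9 ± 9.85 for DMC (SD, n = 4), with all groups overlapping. The other genes of the table within 100 kb were Tsacc, Cct3, Glmp, Tmem79, Smg5, Pmf1, Slc25a44 and Sema4a. Cct3, a subunit of the cytosolic chaperonin, and Smg5, a factor of nonsense-mediated decay, lie on the side of the 3′ end. Pmf1, a kinetochore protein, lies beyond Bglap on the side of the start.

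**Figure D3:**
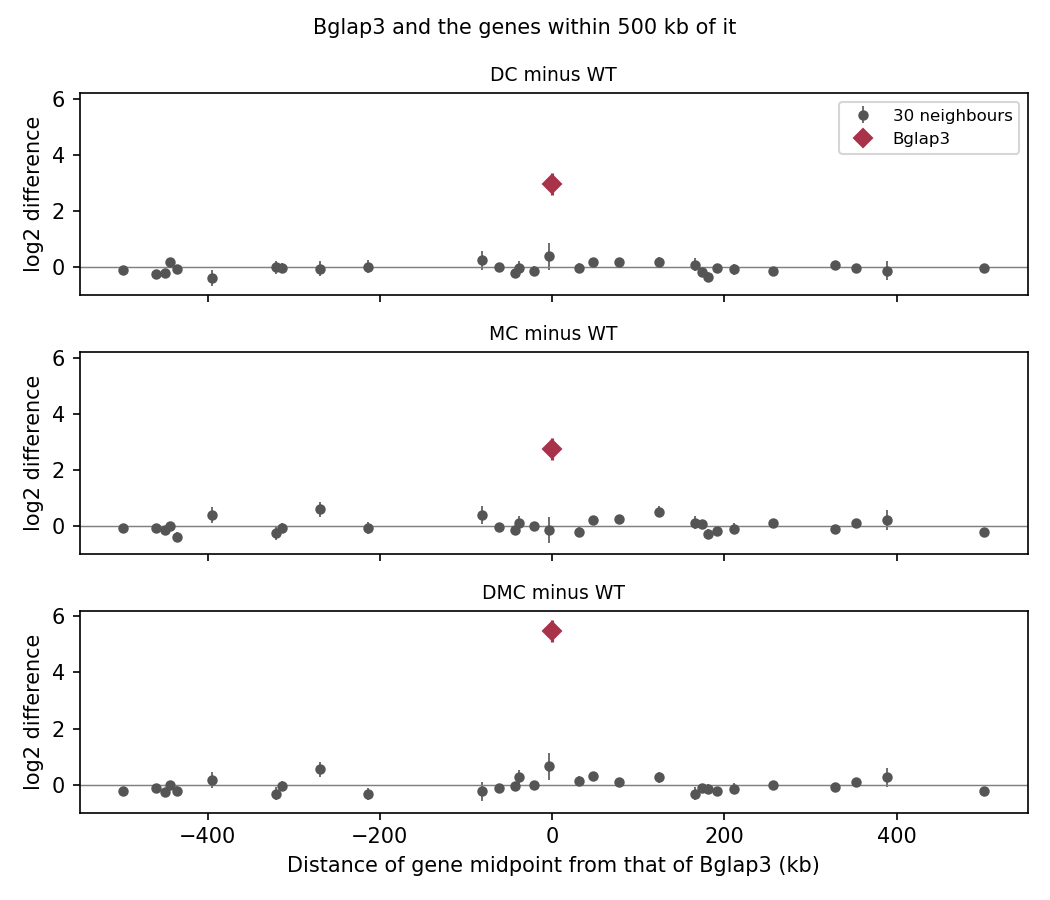
Difference from WT in log2(normalized count + 1), with SE bars, for Bglap3 (diamond) and its 30 tested neighbours (circles), against the distance between gene midpoints in kb, for DC, MC and DMC. Neighbours lie between -0.39 and 0.66 in the 3 panels while Bglap3 lies at 2.97, 2.74 and 5.47.

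Genes with sequence like the shared stretch of the Bglap3 starts were then examined, a list drawn up after the data had been seen. The stretch matched 16 RefSeq windows of 15 other genes and transcripts of 52 genes, 65 genes in all, of which 21 were tested. By limma 0 of 21 passed in any of the 6 comparisons or the interaction, where 0 to 1.37% of all genes tested passed. At an unadjusted p under 0.05 there were 0 to 4 of 21, against 5.6 to 13.7% of all genes tested. By edgeR 0 passed, and by DESeq2 1 passed in DMC minus WT and 1 in DMC minus DC, where it called 331 and 345 of all 14220 genes. Their median log2 difference for DMC minus WT was -0.05. Dpp10, a dipeptidyl peptidase-like subunit of potassium channels, had the smallest p there, with 73.9 ± 42.7 normalized counts in DMC and 15.8 ± 7.69 in WT (SD, n = 4). Its log2 difference was 2.10 ± 0.57 (SE; limma, adjusted p = 0.119). The tested genes matched in a promoter window were Pard3 and Gal3st2c. Pard3, a cell polarity gene, differed by 0.10 ± 0.11 for DMC minus WT, and Gal3st2c, a sulfotransferase gene, by 0.19 ± 1.01.

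Genes of osteocalcin biology were described by role. Of the other Gla proteins, 11 of 16 were in the table and tested. F2 and Gas6 were the only members to pass in the 6 comparisons or the interaction, where 0 to 1.37% of all genes tested passed. The counts were 1 for MC minus WT, 2 for DMC minus WT, 1 for DMC minus DC and 1 for MC minus DC. All were higher in the first group named. F2, which encodes prothrombin, came to 63.6, 57.9, 38.3 and 51.6 normalized counts in WT replicates 1 to 4, with 26.9 to 39.8 for DC, 121 to 158 for MC and 94.1 to 248 for DMC. Every MC and DMC library was above every WT library, and 3 of 4 DC libraries were below the lowest WT library. F2 rose by 1.37 ± 0.27 (SE) from WT to MC (limma, adjusted p = 0.0284) and by 1.27 ± 0.27 from WT to DMC (adjusted p = 0.0400). It was also higher by 1.93 in DMC than in DC (adjusted p = 0.00422) and by 2.03 in MC than in DC (adjusted p = 0.00184), while DC minus WT was -0.66 (adjusted p = 0.350). Bglap3, by contrast, was above WT in all 4 DC libraries. Gas6, a ligand of TAM receptors, rose by 1.01 ± 0.21 from WT to DMC (adjusted p = 0.0348), from 1341 ± 238 to 2671 ± 236 normalized counts (SD, n = 4), and was 0.90 higher in MC than in WT (adjusted p = 0.0544). The adjusted p of F2 against WT and of Gas6 rose above 0.05 when any of several libraries was left out, among them WT replicate 3 (0.0683 for F2 in MC, 0.114 for F2 in DMC and 0.101 for Gas6). The log2 differences without that library were 1.23, 1.12 and 0.89. With the level of circadian clock genes as a covariate, F2 differed by 1.57 for DMC minus DC (adjusted p = 0.104) and by 1.41 for MC minus DC (adjusted p = 0.431).

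The enzymes that make Gla residues or recycle vitamin K, 8 of 8 tested, held no called gene in the 6 comparisons or the interaction. With 0 to 1.37% of all genes tested called there, a list of 8 would seldom hold one. Calu, which encodes calumenin, an inhibitor of the carboxylation system, came to 2568 ± 119 normalized counts in WT and 2593 ± 50.2 in DMC (SD, n = 4). Furin, a proprotein convertase, came to 1061 ± 106 in WT and 897 ± 221 in DMC. Of 2 receptors reported for osteocalcin, Gpr158 was in the table and Gprc6a was not analysed here. Gpr158 came to 40.7, 47.9, 13.9 and 48.3 normalized counts in WT and to 99.3, 146, 96.7 and 238 in DMC. It ranged over 15.4 to 132 in DC and 44.1 to 199 in MC, both overlapping WT. Its log2 difference for DMC minus WT was 1.96 ± 0.62 (SE; limma, adjusted p = 0.193). Ins2 and Ins1, whose release osteocalcin is reported to raise, ranged over 3196 to 51193 and 2527 to 47365 normalized counts across the 16 libraries, and neither passed in any comparison.

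Genes of osteoblasts were described in the same way. Of the transcription factors of osteoblasts 12 of 16 were tested, Runx2 among them, and of the bone matrix genes 13 of 18. Sp7 and Ibsp, which mark osteoblasts closely, were not analysed here. By limma 0 genes of both lists passed in the 6 comparisons or the interaction. Of all genes tested, 0 to 1.37% passed there, so lists of this size would seldom hold a called gene. Over the 48 tested genes of all 6 pathway lists, limma called 0 for DC minus WT, 1 for MC minus WT, 2 for DMC minus WT, 0 for DMC minus MC, 1 for DMC minus DC, 1 for MC minus DC and 0 for the interaction. Those at an unadjusted p under 0.05 numbered 14, 11, 10, 4, 7, 7 and 8 in the same order. These are 29.2, 22.9, 20.8, 8.3, 14.6, 14.6 and 16.7% of the 48, against 11.7, 12.7, 12.5, 5.6, 13.2, 13.7 and 8.1% of all genes tested. edgeR gave the same counts as limma, and DESeq2 gave 3, 2, 3, 0, 2, 1 and 0. The median difference of the bone matrix list was 0.85 for DC minus WT, 0.51 for MC minus WT and 0.42 for DMC minus WT, against -0.02 over all genes in each, lowest of the 3 in DMC, where Bglap3 was highest. The list holds genes of stroma, such as Col1a1, Col1a2, Sparc and Ogn, and fibroblast and stellate markers had medians of 0.66 (10 of 10 positive), 0.34 (9 of 10) and 0.48 (10 of 10) in the same comparisons. Col1a2, a chain of type I collagen, had means of 3464 ± 370 (WT), 6518 ± 2213 (DC), 5511 ± 1315 (MC) and 4734 ± 1135 (DMC) normalized counts (SD, n = 4). Atf4, a transcription factor that acts on osteocalcin, came to 3572 ± 646 in WT and 2948 ± 460 in DMC, and Rxra, the partner of the vitamin D receptor, to 952 ± 118 and 975 ± 105.

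The genes whose pattern was most like that of Bglap3 were named by Pearson r over the 16 libraries, among 11330 genes averaging 50 normalized counts or more. They were Agt (0.85), Wfdc15b (0.85), C1qtnf1 (0.83), Uqcc1 (0.82), Spp1 (0.82), Klf10 (0.80), Tox3 (0.80) and Fxyd3 (0.79), with Spearman rho of 0.76, 0.83, 0.75, 0.81, 0.83, 0.78, 0.70 and 0.73. The libraries fall into genotype groups, so these values mostly describe the order of the group means, and 5 of the 8 were also among the 8 highest by rho. Agt, the precursor of angiotensin, came to 55.4 ± 11.97 normalized counts for WT, 80.1 ± 31.9 for DC, 155 ± 52.8 for MC and 457 ± 247 for DMC (SD, n = 4). Its DMC libraries lay above all others, as for Bglap3, but its DC libraries overlapped WT. C1qtnf1, a secreted C1q and TNF related protein, came to 69.6 ± 11.1, 134 ± 45.1, 215 ± 98.4 and 356 ± 100 in the same order. Wfdc15b, a whey acidic protein domain gene, came to 22.1 ± 8.91 in WT and 102 ± 35.8 in DMC. Spp1, which encodes osteopontin, another bone matrix protein and one made by pancreatic duct cells, had means of 3590 ± 948 for WT, 4479 ± 629 for DC, 4667 ± 897 for MC and 5650 ± 968 for DMC. Uqcc1 moved by far less, from 244 ± 20.1 in WT to 301 ± 12.4 in DMC.

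**Figure D4:**
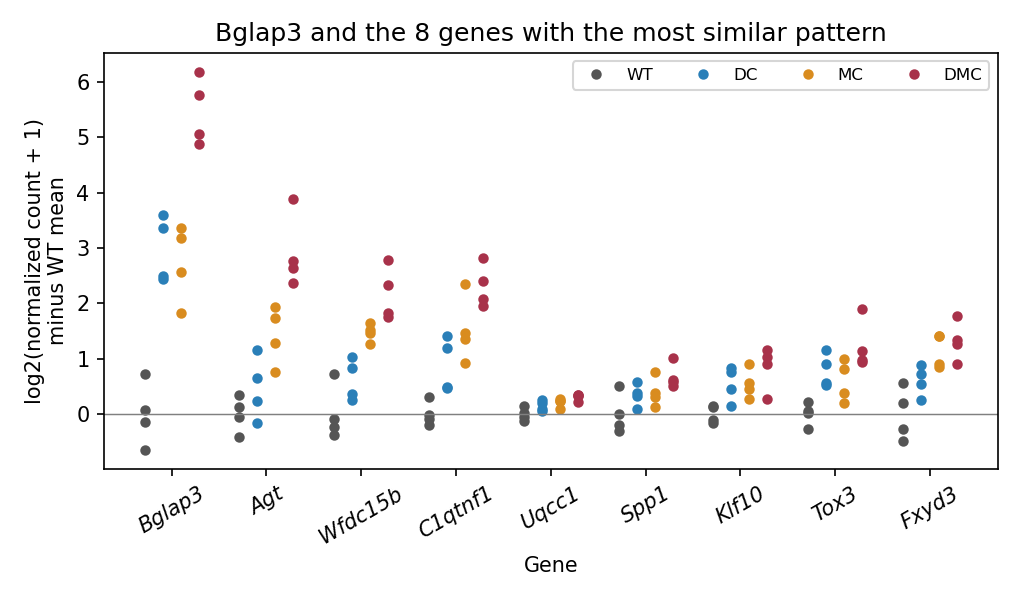
log2(normalized count + 1) minus the WT mean for Bglap3 and the 8 genes with the highest Pearson r with it, a point per library coloured by group. Bglap3 spans the widest range, and Agt is the only other of these genes with a DMC library above 3.

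Marker lists of the cell types that a pancreas sample can hold were read beside Bglap3. The gastric gland list, of which 9 of 14 genes were in the table, summed to 9582 to 34631 normalized counts in WT and DC and 20045 to 51681 in MC and DMC. Its mean log2 level was 4.57 to 6.50 in the WT and DC libraries and 8.68 to 11.6 in the MC and DMC libraries, so it moved with loss of Men1, whereas Bglap3 was also higher in DC. Within groups, the deviations of Bglap3 from the group mean had Pearson r = 0.04 with those of the gastric list (Spearman rho = 0.04, within-group permutation p = 0.891 and 0.904, n = 16). A list of circadian clock repressors and output genes (Nr1d1, Nr1d2, Dbp, Tef and Per3), 5 of 5 in the table, had mean log2 levels of 8.90 to 9.56 in DC and 7.28 to 7.57 in MC, which did not overlap, while Bglap3 overlapped between these groups. With that level minus the level of Arntl, Npas2 and Nfil3 as a covariate, the Bglap3 differences from WT were 3.11 for DC, 2.67 for MC and 5.49 for DMC. Islet endocrine genes, 12 of 12 tested, had median log2 differences from WT of 0.12 in DC, 1.04 in MC (12 of 12 positive) and 1.48 in DMC (11 of 12 positive). Their mean level was 7.64 to 9.55 in the DMC libraries, above the 6.22 to 7.60 of WT. The acinar medians were -0.64 in DC, -0.35 in MC and -0.49 in DMC, and the lymphoid medians -1.17, -1.46 and -0.97, with 12 of 12 lymphoid genes negative in each. The WT lymphoid level itself ran from 4.06 in replicate 1 to 8.12 and 8.86 in replicates 2 and 3.

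Over 11 lists, no deviation correlation passed 0.05 after Benjamini-Hochberg adjustment. The endothelial list had r = -0.63 and rho = -0.60 (two-sided within-group permutation p = 0.0259 and 0.0246, adjusted 0.116 and 0.148), and r was -0.53 without the 2 libraries farthest from the median. The megakaryocyte and platelet list, of which 4 of 10 genes were in the table, had r = -0.63 and rho = -0.56 (permutation p = 0.0245 and 0.0419, adjusted 0.116 and 0.154), and -0.58 without those libraries. The adipocyte list had r = -0.60 and rho = -0.61 (permutation p = 0.0316 and 0.0268, adjusted 0.116 and 0.148), and -0.58 without them. Without MC replicate 2 the adipocyte r was -0.81, with an adjusted permutation p of 0.0223. The acinar list had r = 0.34 and the ductal list r = 0.38 (adjusted permutation p = 0.310 for both). The part of cell composition in the group differences of Bglap3 was not tested.

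**Figure D5:**
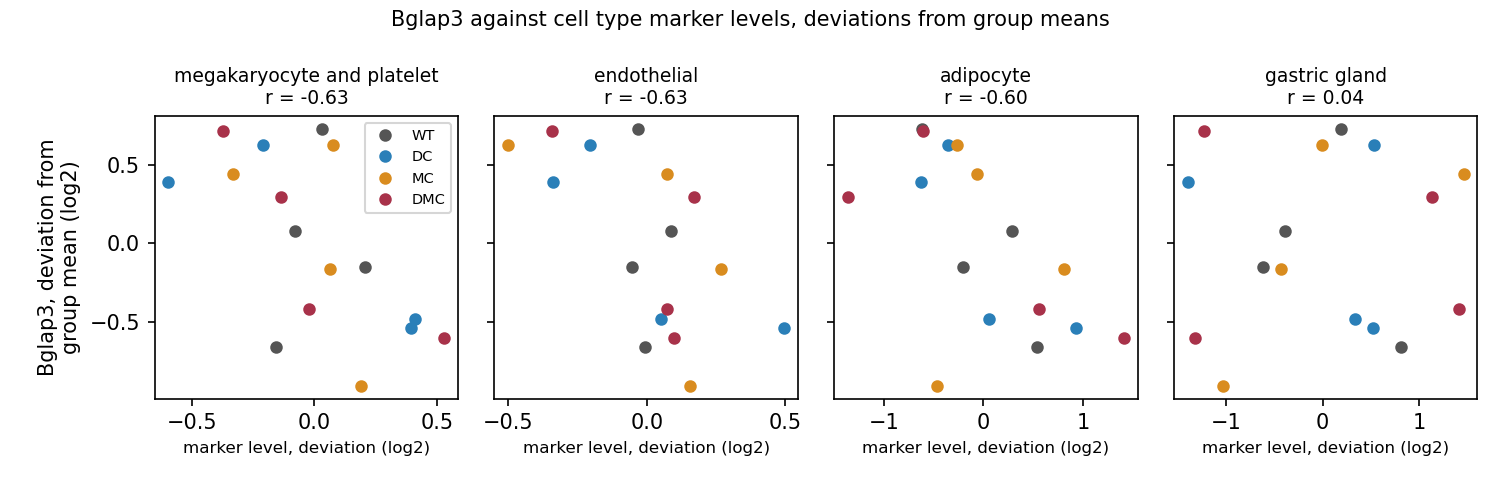
Deviation of Bglap3 from its group mean against the deviation of the mean marker level, both in log2, a point per library coloured by group, for the 3 lists with the largest r in size and for the gastric gland list. Points of the first 3 panels fall from left to right, with r of -0.63, -0.63 and -0.60, and the gastric panel has r = 0.04.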

How the data were processed

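Bglap3, its neighbours and the gene lists were chosen with earlier results of these data known, and the list of genes with sequence like the shared stretch was added after the data had been seen. STAR 2.6.0b, DESeq2 (without a version) and the GRCm38 build are named per the submitters' processing notes; the read counter is not given in the sources used here. Each deposited signal value is a normalized count per gene and library, reads that the authors scaled by size factors. All values (100%) of a library were whole multiples of 1 step within 0.01, so reads were recovered for count tests. Genes were matched to GENCODE M21 by identifier (15152 of 15156).

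Genes with at least 10 normalized counts in at least 4 libraries (14220) were fitted with limma 3.58.1 (trend, R 4.3.3) on log2(normalized count + 1), with 16 libraries in 1 fit, 6 group comparisons and the interaction, and Benjamini-Hochberg adjustment at 0.05, two-sided. A fold change on this scale understates the change of low genes. edgeR 4.0.16 and DESeq2 1.42.0 on recovered reads, other normalizations, filters, covariates and libraries left out were alternatives. The neighbour distance was 500 kb with 250 kb as an alternative. Named genes were Bglap3, Daxx, Men1, genes within 100 kb, the members of each pathway list that passed (otherwise the 2 most abundant), and the 8 genes with the highest Pearson r; genes with sequence matches were named after their values were seen. Marker levels are means of log2 values over a list, and their deviations from group means were tested with 100000 permutations within groups. Sequence matches were found with BLAST 2.17.0 at an e-value of 1e-05. The fit was tested on simulated data. Counting intervals are 95% Poisson intervals and cover counting error only. Libraries of a group differed by a chi-square per degree of freedom of 8.67 to 133.2, so none repeated another.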

Additional observations from a re-analysis of the deposited data

Results flagged for a closer look

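In 13 of 140 checks (35 named genes in 4 groups), the highest or lowest of the 4 libraries of a group lay far from the rest, its gap to the nearest library divided by the range being above the 95% critical value. Chance flags about 1 in 20 such groups, and Bglap3 was not among them. Among the targeted and neighbouring genes these were Men1 in WT (ratio 0.885, with 459 normalized counts against 345 in the nearest library) and Pmf1 in DC (0.850, 105 against 82.1). Among genes with a pattern like that of Bglap3 they were Agt (0.834, 823 against 376) and Tox3 (0.841, 133 against 78.3) at the top of DMC, and Uqcc1 at the bottom of DMC (0.836, 282 against 304). Among Gla protein genes, F2 had a high DMC library (0.895, 248 against 110) and Gas6 a low DMC library (0.845, 2321 against 2749). Ins2 had a high library in DC (0.896) and in DMC (0.880), and so had Ins1 in DC (0.903) and in DMC (0.863). The last were Atf4 in WT (0.864, 4531 against 3316) and Gal3st2c in WT (0.875, 42.4 against 7.23).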

How the results depend on the processing

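Of 216 Bglap3 values under the alternatives, 214 moved by less than the residual SD; with library quality weights DMC minus DC was 1.81 and the interaction -1.02 (95% interval -2.03 to -0.02). Leaving out each library in turn gave Bglap3 2.75 to 3.22 for DC minus WT, 2.52 to 3.04 for MC minus WT, 5.23 to 5.71 for DMC minus WT, 2.43 to 2.94 for DMC minus MC, 2.26 to 2.71 for DMC minus DC, -0.44 to 0.07 for MC minus DC and -0.54 to -0.02 for the interaction. Counts of called genes moved much more, and the cause was not tested. In the order DC minus WT, MC minus WT, DMC minus WT, DMC minus MC, DMC minus DC, MC minus DC and interaction, DESeq2 called 283, 391, 331, 56, 345, 500 and 43 genes and weights 177, 265, 245, 35, 1655, 1033 and 11. Leaving out each library gave 0 to 19, 38 to 189, 17 to 183, 0 to 19, 14 to 188, 49 to 253 and 0 to 8. With the replicate number as a block the counts were 46 for MC minus WT, 36 for DMC minus WT, 0 for DMC minus MC, 37 for DMC minus DC and 110 for MC minus DC, and pathway genes 0 for MC minus WT and 0 for DMC minus WT, with the Bglap3 differences as before. The numbers showed no consistent pairing of the libraries, though this check cannot exclude a weak or partial one. Correlations of deviations for the 24 same-numbered pairs ran from -0.37 to 0.38, 11 of them above 0.1, and 1 library correlated best with its own number. With the clock level as covariate the counts were 0 for DC minus WT, 44 for MC minus WT, 0 for DMC minus MC, 7 for DMC minus DC and 4 for MC minus DC, and pathway genes 0 in MC minus WT, DMC minus DC and MC minus DC. With the lymphoid level they were 12 for DC minus WT, 4 for DMC minus MC and 148 for DMC minus DC, and pathway genes 0 for MC minus WT. Without WT replicates 2 and 3 they were 41 for DC minus WT, 43 for DMC minus WT, 9 for DMC minus MC, 117 for DMC minus DC and 5 for the interaction, with pathway genes 0 for MC minus WT and for DMC minus WT. With only the groups compared they were 1, 67, 16 and 10 for the first 4, with 2 pathway genes for MC minus WT and 1 for DMC minus WT. For DMC minus MC, quantile normalization called 9, a pseudocount of 5 called 7, TMM scaling 2, robust empirical Bayes 0 and the Y-linked level as covariate 2; for the interaction a pseudocount of 5 called 2 and the Y-linked covariate 1. Quantile normalization called 0 pathway genes for MC minus WT and DMC minus WT. Pathway genes by DESeq2 numbered 3 for DC minus WT, 2 for MC minus WT and 2 for DMC minus DC, and by weights 2 for MC minus WT, 4 for DMC minus WT, 9 for DMC minus DC and 3 for MC minus DC; leaving out a library gave 0 to 2 for MC minus WT and 0 to 3 for DMC minus WT. Weights called 3 neighbours for DMC minus DC and 2 for MC minus DC, and 3 and 1 genes with the shared sequence there, where DESeq2 called 1 for DMC minus WT and 1 for DMC minus DC. The number of marker lists past 0.05 was 0, and 0 to 1 when a library was left out; the gastric r then ran from -0.14 to 0.22. The Daxx difference for DC minus WT was 0.07 without WT replicates 2 and 3. In WT, 34 to 77 reads of Bglap3 limit its precision.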
